A study of Rattus norvegicus with 43 samples.

Results

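The genes described here encode the respiratory chain, the ATP synthase, the mitochondrial ribosome and the mitochondrial protein import machinery, measured in the colonic mucosa of rats given the colon carcinogen azoxymethane. Members were all probes whose single gene symbol in the platform annotation begins with Nduf, Cox4 to Cox8, Atp5, Uqcr, Sdha to Sdhd, Mrpl or Mrps with a number, Timm or Tomm. The rule found 104 of the 8452 probes on the array, standing for 100 genes. They were 15 probes for complex I subunits, 4 for complex I assembly factors, 2 for complex II, 3 for complex III, 5 for complex IV, 11 for complex V, 26 for the large and 22 for the small subunit of the mitochondrial ribosome, 12 for import through the inner membrane and 4 for import through the outer membrane. Mrpl50, Mrpl57, Mrps27 and Timm22 each had a pair of probes. A further 4 probes matched the rule through one of several symbols and were left out. Every symbol used is also the current symbol in the RefSeq annotation.

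The study compared male Sprague Dawley rats, described as weanling, fed fish oil, olive oil or corn oil, all given azoxymethane at 15 mg/kg. Tissue was taken 10 wk after injection from 4 rats fed fish oil (8 arrays), 5 fed olive oil (7 arrays) and 5 fed corn oil (8 arrays), and 12 h after injection from 5 rats fed fish oil (7 arrays), 5 fed olive oil (6 arrays) and 5 fed corn oil (7 arrays). The treatment protocol gives the late rats another injection and counts 9 wk from it, so that time on diet, the number of injections and age go together with time and cannot be told apart. No rat went without carcinogen and no RNA from untreated colon was included. Rats are separate animals, and p-values rest on the spread between their values. Only 10 of the 29 rats had repeat arrays, so that this spread also holds differences between arrays.

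Complexes I to IV pass electrons from NADH and succinate to oxygen. Complexes I, III and IV also pump protons across the inner mitochondrial membrane, and complex V, the ATP synthase, uses the proton gradient to make ATP. Most subunits are encoded in the nucleus and enter the organelle through the Tomm and Timm complexes, while a few core subunits are encoded in mitochondrial DNA and translated on the mitochondrial ribosome, whose proteins are all nuclear products. Differentiated colonocytes are known for oxidising butyrate from bacterial fermentation in their mitochondria.

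Arrays had 1 colour and a median signal over background of 163 to 685 intensity units per array. Of the members, 100 of 104 probes were above the noise level of their spots on every array that carried them. The 43 arrays fell into 3 classes by the median area that the image analysis gave to spots and to the background rings around them, called here large spots, large ring and small ring. The classes were uneven over the times: 12 late and 3 early rats had large ring arrays, 2 late and 11 early rats small ring arrays, and 2 late and 4 early rats large spots arrays, some rats being in more than 1 class. In olive oil rats large spots was the only class present at both times, in 1 late and 3 early rats. The early rats with large ring arrays were 102, 103 and 206. Those of rats 102 and 103 (corn oil) had the lowest signal over background of all arrays, 163 and 177. The late rats with small ring arrays were 136 and 236. All 6 high-background arrays came from these rats, with a background median of 81 to 83 against 51 to 67 on the other arrays. They include the small ring array of rat 236 and all but the first of rat 136. The classes are read from the files and no label names them. Repeat arrays of 1 rat differed over the member probes with a median SD of 0.19 on the log2 scale within a class (11 pairs) and 0.27 across classes (9 pairs). Values with the class as a term of the fit are therefore given beside the calls. Levels below are log2 of normalized intensity, differences are log2 differences, and a call is a Benjamini-Hochberg adjusted p below 0.05 from limma over all 6381 tested probes. Values below the floor of 6.46 were set to it. Levels of different probes are not comparable with each other.

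The tissue carried the epithelial transcripts that its label implies. Vil1, of the brush border, averaged 13.28 ± 0.15 in 10 wk rats and 13.39 ± 0.20 in 12 h rats (SD, n = 14 and 15), and the goblet cell product Tff3 averaged 14.28 ± 0.22 in 10 wk rats and 14.49 ± 0.26 in 12 h rats. None of 2 tested colonocyte markers and none of 2 tested goblet cell markers was called between the times. Of 4 tested proliferation markers, 3 were higher at 10 wk: Mki67 by 0.60, Cdk1 by 0.52 and Ccna2 by 0.53. The fourth, Pcna, differed by -0.19 (adjusted p = 0.0837, and 0.122 with class in the fit). With scan class in the fit Cdk1 and Ccna2 kept their calls and the adjusted p of Mki67 was 0.0859. The summed intensity of the 4 ranged from 3422 to 5581 in 10 wk rats and from 2383 to 5130 in 12 h rats. Of 4 tested smooth muscle markers, Myh11, Tagln and Smtn were higher at 10 wk, by 0.59, 0.48 and 0.30, with summed intensities of 882 to 2116 in 10 wk rats and 663 to 1555 in 12 h rats. Scan class in the fit left Smtn as the only call among them. The fibroblast marker Col1a1, 1 of 2 tested, fell by 0.23 (adjusted p = 0.0492, and 0.193 with class in the fit). Of the tested markers, for B cells, T and NK cells, macrophages, adipocytes, endothelium and enteric neurons and glia (1, 2, 2, 2, 2 and 1 probes), none was called. With scan class in the fit 2 of these were called, the macrophage marker Lyz2 (-0.36 without class, adjusted p = 0.172 without and 0.0116 with class) and the T cell marker Lck (-0.20, adjusted p = 0.115 and 0.0211). Tagln, Cnn1, Vwf and Fabp4 were at the floor of the scale in at least 1 rat. The part of these markers in the results below was not tested. In pieces of mucosa, fewer cells of a type and less RNA per cell cannot be told apart.

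The first comparison asks how the members stood at 10 wk against 12 h, averaged over the 3 diets. Most of them differed little: 9 of the 99 tested members were called, 3 higher and 6 lower, whereas 36.9% of all tested probes were called, 19.2% higher and 17.7% lower. Another 6 members had an unadjusted p below 0.05 without a call, 15 in all, against 2943 of all 6381 probes. The median difference of the members was 0.005, and 0.003 over all tested probes. The median size of the difference, sign apart, was 0.071 for members and 0.155 for all probes, with median standard errors of 0.069 and 0.080. The 95% confidence interval lay within 0.32 of 0 on the log2 scale for 78 of 99 members, and within a 1.5-fold change for 96. Over all tested probes these counts were 3060 and 5477 of 6381. With scan class as a term, 3 of 99 members were called, all lower, against 16% of all probes. In a fit of all 43 arrays with class as a term and rat as a random block, 4 members were called, 1 higher and 3 lower, against 24.7%.

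**Figure D1:**
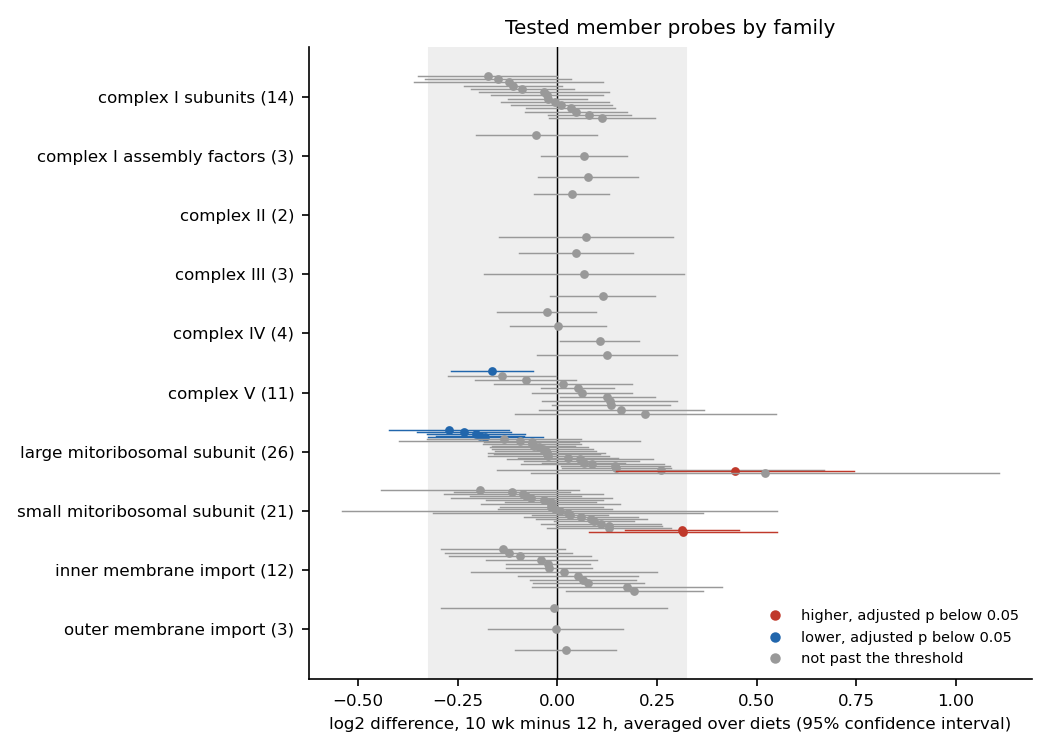
Log2 difference at 10 wk minus 12 h, averaged over diets, for the 99 tested member probes, in rows by family with the number of probes in brackets. Points are estimates and lines 95% confidence intervals, with red for higher and blue for lower at an adjusted p below 0.05, and the grey band reaches 0.32 to either side of 0. The 34 subunits of complexes I to V lie between -0.17 and 0.22 with 1 call, and the 8 other calls are ribosomal. Of all tested probes 36.9% were called.

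The subunits of the respiratory chain and ATP synthase gave 1 call among 34, beside 36.9% of all tested probes. For 29 of these 34 the confidence interval lay within 0.32 of 0. Their median difference was 0.03, with 21 differences above 0 and 13 below. Atp5pb, the b subunit in the peripheral stalk of the ATP synthase, ran from 12.70 through a median of 12.99 to 13.19 in 10 wk rats and from 12.83 through 13.07 to 13.33 in 12 h rats. Levels overlapped, with 12 of 14 late rats below the 12 h mean, and the means were 12.97 ± 0.14 at 10 wk and 13.12 ± 0.13 at 12 h (SD). The difference was -0.16 ± 0.05 (SE; limma adjusted p = 0.0116). With scan class in the fit it was -0.115 with an adjusted p of 0.319, and within classes it was -0.19 in large ring, -0.08 in small ring and 0.08 in large spots arrays.

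The 10 other tested members of complex V were not called. The catalytic subunits did not share a sign: Atp5f1b, the beta subunit, differed by -0.14 (adjusted p = 0.102) and Atp5f1a, the alpha subunit, by 0.16 (adjusted p = 0.220). The Atp5f1a difference includes rat 203 (fish oil, 12 h) at 13.11, where the other rats of its group read 14.01 to 14.40. The genes for the c subunit of the membrane ring differed by 0.22 for Atp5mc1, 0.13 for Atp5mc2 and -0.08 for Atp5mc3, none called. The Atp5mc1 value includes olive oil rats at 12 h, at 12.73 ± 1.03 (SD) with rat 302 at 10.91. Its means at 10 wk and 12 h were 13.32 and 13.45 in corn oil rats and 13.35 and 13.27 in fish oil rats. Atp5po, the stalk subunit that joins the catalytic head, had the smallest spread between rats of all members, a within-group SD of 0.10, and differed by 0.05 (95% interval -0.04 to 0.14).

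None of 14 tested complex I subunits was called, and 9 of the 14 differences were below 0. The smallest p belonged to Ndufb2, an accessory subunit of the membrane arm. Its levels ran from 7.64 through 7.82 to 8.69 in 10 wk rats and from 7.74 through 8.14 to 8.39 in 12 h rats, with wide overlap, and the difference was -0.17 ± 0.08 (adjusted p = 0.109). Among the core subunits that carry redox centres, Ndufv2 differed by -0.15 (adjusted p = 0.193) and Ndufs7 by -0.01 (adjusted p = 0.945). Ndufa9, an accessory subunit beside the quinone site, was too dim for the filter. It ran from 6.96 through 7.15 to 7.45 in 10 wk rats and from 7.22 through 7.44 to 7.65 in 12 h rats, 12 of 14 late rats lying below the 12 h mean. Without the filter on low signal it was the 1 additional member called lower. Of the factors that help assemble complex I, Ndufaf3, Ndufaf7 and Ndufaf8 were tested and none was called. Ndufaf3 had the smallest p, with 9.47 ± 0.15 at 10 wk and 9.40 ± 0.12 at 12 h and a difference of 0.07 (interval -0.04 to 0.17). Ndufaf4 was not tested and ran from 6.46, the floor, to 7.52 at 10 wk and from 6.59 to 7.74 at 12 h.

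Complexes II, III and IV gave no call among 2, 3 and 4 tested probes. Sdhb, the iron-sulfur subunit of succinate dehydrogenase, averaged 13.66 ± 0.10 at 10 wk and 13.63 ± 0.12 at 12 h, a difference of 0.04 (interval -0.06 to 0.13), and its membrane anchor Sdhd differed by 0.07. Uqcrc2, a core protein of complex III, differed by 0.11 (interval -0.02 to 0.24, adjusted p = 0.168), and Uqcrb and Uqcrh by 0.05 and 0.07. Cox5a, a nuclear subunit of cytochrome c oxidase, ran from 13.58 through 13.75 to 13.92 at 10 wk and from 13.38 through 13.63 to 13.84 at 12 h, with 11 of 14 late rats above the 12 h mean and a difference of 0.11 ± 0.05 (adjusted p = 0.0883). Cox4i1 differed by -0.03, Cox7b by 0.002 and Cox7a2l, a factor of supercomplex assembly, by 0.12. Cox6a2, the isoform known from heart and skeletal muscle, was too dim to be tested, at 6.53 to 7.42 in 10 wk rats and 6.63 to 7.51 in 12 h rats.

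The mitochondrial ribosome gave 8 of the 9 calls, among 47 tested probes: 3 higher and 5 lower, where 36.9% of all tested probes were called. The small subunit gave 2 of 21, both higher, beside 19.2% of all tested probes called higher. Mrps12, the ribosomal protein S12 homologue, which lies near the decoding site, ran from 11.43 through 11.70 to 11.97 at 10 wk and from 11.02 through 11.44 to 11.57 at 12 h. All 14 late rats were above the 12 h mean, although the ranges overlapped. Means were 11.69 ± 0.18 at 10 wk and 11.38 ± 0.18 at 12 h, a difference of 0.31 ± 0.07 (adjusted p = 0.00114), the smallest p among the members. The difference was 0.265 with class in the fit (adjusted p = 0.0783), 0.30 over all arrays with class and rat (adjusted p = 0.00239), and 0.19, 0.53 and 0.19 within large ring, small ring and large spots arrays.

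Mrps28, also of the small subunit, ran from 8.03 through 8.72 to 9.03 at 10 wk and from 7.60 through 8.35 to 8.75 at 12 h. The groups overlapped and the difference was 0.31 ± 0.11 (adjusted p = 0.0333). The call was lost when any 1 of 8 rats was left out and in 11 of 17 other settings, scan class in the fit among them, where the difference was 0.39 (adjusted p = 0.110). Within large ring, small ring and large spots arrays it was 0.28, 0.54 and 0.26. The other 19 probes of the small subunit lay between -0.19 (Mrps2) and 0.13 (Mrps14), none called. Mrps18c was too dim to be tested, at 6.83 to 7.48 at 10 wk and 6.67 to 7.37 at 12 h.

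The large subunit gave 6 calls among 26 tested probes, 1 higher and 5 lower, beside 19.2% of all tested probes called higher and 17.7% lower. Mrpl52 ran from 8.73 through 9.52 to 10.25 at 10 wk and from 8.60 through 8.86 to 9.38 at 12 h. It was among the more variable members, with means of 9.42 ± 0.46 at 10 wk and 8.96 ± 0.32 at 12 h and 11 of 14 late rats above the 12 h mean. The difference was 0.45 ± 0.15 (adjusted p = 0.0184), and 0.31 with class in the fit (adjusted p = 0.389). Within classes it was 0.56 in large ring, -0.01 in small ring and 0.38 in large spots arrays.

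Mrpl57 was lower by both of its probes, which share a target and are not independent evidence. Probe 8732 ran from 9.59 through 9.74 to 10.05 at 10 wk and from 9.69 through 9.99 to 10.21 at 12 h, a difference of -0.23 ± 0.06 (adjusted p = 0.00235). Probe 9407 ran from 7.30 through 7.60 to 7.96 at 10 wk and from 7.58 through 7.81 to 8.43 at 12 h, a difference of -0.27 ± 0.07 (adjusted p = 0.00519). On each probe 13 of 14 late rats lay below the 12 h mean, and the ranges overlapped. With class in the fit the adjusted p was 0.0671 for probe 8732 and 0.00124 for probe 9407. On probe 9407 the highest 12 h values, 8.43 and 8.22, were those of rats 102 and 103, with the dimmest arrays. Within large ring, small ring and large spots arrays the differences were -0.31, 0.00 and -0.25 for probe 8732, and -0.67, -0.15 and -0.40 for probe 9407.

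A further 3 large subunit genes were called lower and are named here after their values were seen. Mrpl18 averaged 11.32 ± 0.18 at 10 wk and 11.52 ± 0.13 at 12 h, a difference of -0.20 ± 0.06 (adjusted p = 0.00895), with 13 of 14 late rats below the 12 h mean. Mrpl45, which in the human ribosome lies at the exit of the peptide tunnel by the inner membrane, averaged 9.46 ± 0.14 at 10 wk and 9.65 ± 0.13 at 12 h, a difference of -0.19 ± 0.05 (adjusted p = 0.00643). Both kept their calls with class in the fit, at -0.305 and -0.309 (adjusted p = 0.0205 and 0.00406). Rats 102 and 103, with the dimmest arrays, read 11.74 and 11.51 for Mrpl18 and 9.86 and 9.76 for Mrpl45. Their part in the calls that held with class in the fit was not tested. The differences within small ring arrays were -0.18 for Mrpl18 and -0.02 for Mrpl45, with rats 136 and 236 on the late side. Mrpl51 averaged 9.71 ± 0.23 at 10 wk and 9.88 ± 0.18 at 12 h, a difference of -0.18 ± 0.07 (adjusted p = 0.0456). Leaving out any 1 of 20 rats ended that call, as did class in the fit (adjusted p = 0.138). Of the 9 called probes, the sign of the reported difference recurred within large ring arrays in 9, within large spots arrays in 8 and within small ring arrays in 7. For uncalled members this held in 62 of 90, 56 of 89 and 50 of 90. The classes hold the same rats that gave the calls, so that recurrence is no independent support.

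**Figure D2:**
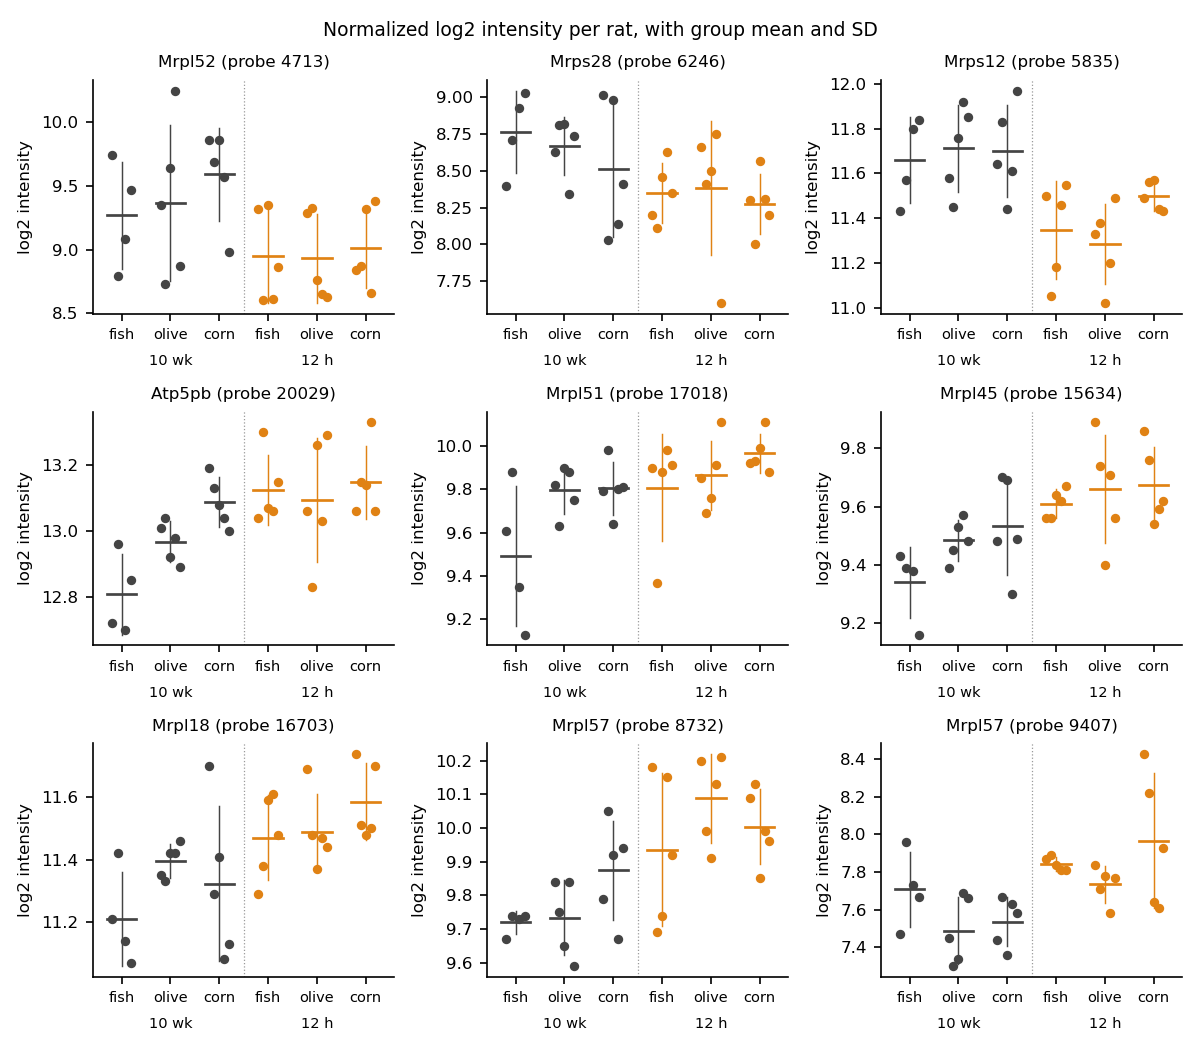
Normalized log2 intensity of the 9 called probes in every rat, by diet, with 10 wk rats in grey on the left and 12 h rats in orange on the right of each panel. Horizontal bars are group means and vertical lines 1 SD, and axes do not start at 0. The ranges of the times overlap for each of the 9 probes.

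The other pairs of probes show how far probes of 1 gene can differ. For Mrpl50, 1 probe differed by -0.04 and the other by 0.26, neither called; the second read 7.75 in rat 304 (olive oil, 12 h) against 10.17 to 10.85 in the other 12 h rats. For Mrps27 the differences were -0.03 and 0.01, and the probe with the second value spanned 6.98 to 10.11 over all rats where the first spanned 7.41 to 8.15. The Timm22 probes gave 0.02 and 0.06.

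Import genes gave no call among 15 tested probes, and the interval lay within 0.32 of 0 for 13 of them. Timm10b, one of the small Tim chaperones of the carrier pathway, had the smallest p: 7.43 through 7.89 to 8.24 at 10 wk and 7.27 through 7.69 to 8.18 at 12 h, a difference of 0.19 ± 0.08 (adjusted p = 0.0719). Timm17a, of the presequence translocase, differed by -0.14, and the motor tether Timm44 by -0.12, neither called. The outer membrane receptors Tomm20 and Tomm22 differed by -0.01 and -0.004, and the cochaperone Tomm34 by 0.02 (interval -0.11 to 0.15). Tomm40l, a paralogue of the import pore, was too dim to be tested, at 6.69 to 7.30 at 10 wk and 6.63 to 7.39 at 12 h.

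Promoters of 4 of the 8 called genes are shown because many genes of this system are known for binding sites of the factors NRF1, GABP (an ETS family factor) and YY1. RefSeq gave a promoter, from 250 bases before to 50 after the annotated start in build GRCr8, for 87 of the 100 genes, and the table used here holds no entry for Mrps12 and Mrps28. The window held the ETS letters CCGGAAG on either strand in 25 of 87 members (28.7%) and 8.75% of the 33469 promoters in the table, the YY1 letters AAGATGGCG in 12 (13.8%) and 1.73%, and the NRF1 letters GCGC, A, any base, GCGC in 15 (17.2%) and 4.25%. The exact palindrome, GCGC on both sides of AT and a subset of the last, occurred in 6 members (6.9%) and 0.852% of all promoters. Median GC content was 56.3% in members and 51.7% in all promoters. Members had 1 promoter per gene, while the table was not reduced to 1 per gene or limited to protein-coding genes. The shares are therefore not of like sets. By group the ETS letters were in 7 of 32 chain and ATP synthase genes, 12 of 38 ribosomal genes and 5 of 13 import genes. The 200 bases just before the start follow for 4 called genes, 5′ to 3′ on the gene's strand, with matches to these letters in capitals. Mrpl57 (chr15:36086257-36086456, plus strand) held 2 NRF1 matches and 1 ETS match, Mrpl45 (chr10:82804839-82805038, plus) 1 NRF1 match, Mrpl52 (chr15:31852736-31852935, plus) 1 ETS match, and Atp5pb (chr2:196123738-196123937, minus) none.
Mrpl57: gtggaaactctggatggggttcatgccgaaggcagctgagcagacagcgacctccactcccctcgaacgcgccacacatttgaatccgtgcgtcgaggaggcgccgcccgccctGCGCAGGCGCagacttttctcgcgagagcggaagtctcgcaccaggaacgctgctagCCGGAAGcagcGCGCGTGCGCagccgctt
Mrpl45: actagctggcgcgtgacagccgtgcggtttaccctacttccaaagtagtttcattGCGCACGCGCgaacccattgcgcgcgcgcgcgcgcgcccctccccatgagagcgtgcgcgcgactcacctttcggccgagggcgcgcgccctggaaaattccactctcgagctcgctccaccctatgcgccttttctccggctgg
Mrpl52: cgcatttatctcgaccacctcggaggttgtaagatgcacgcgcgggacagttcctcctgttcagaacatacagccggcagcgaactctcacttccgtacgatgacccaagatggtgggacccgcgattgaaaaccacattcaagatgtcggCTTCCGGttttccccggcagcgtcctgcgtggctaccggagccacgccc
Atp5pb: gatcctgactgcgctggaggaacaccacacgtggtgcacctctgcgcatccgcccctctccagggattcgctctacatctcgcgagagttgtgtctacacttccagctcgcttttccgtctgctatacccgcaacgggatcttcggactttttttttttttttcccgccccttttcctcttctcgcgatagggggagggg
A match is a run of letters and not a measured binding site. Mrpl18 and Mrpl51, not printed, had none of these letters in the same stretch. Of the 5 genes called lower at 10 wk that have a promoter, 2 thus held a match and 3 did not, and Mrpl52, called higher, held 1. These counts take any of the letters in the 200 bases before the start. The shares above are for each set of letters in the longer window, and are not comparable with them.

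Within a single diet few members passed the threshold. In fish oil rats 1 of 99 was called, against 12.1% of all probes. Atp5pb had 12.72, 12.96, 12.70 and 12.85 in 10 wk rats and 13.04, 13.30, 13.07, 13.06 and 13.15 in 12 h rats. These levels did not overlap, and the difference was -0.31 ± 0.09 (adjusted p = 0.0234). With class in the fit it was -0.25 (adjusted p = 0.222), and leaving out any 1 of 4 rats ended the call, with adjusted p up to 0.0958.

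In olive oil rats 2 of 99 members were called, against 13.4% of all probes. Mrps12 had 11.58, 11.45, 11.76, 11.92 and 11.85 at 10 wk and 11.33, 11.38, 11.02, 11.20 and 11.49 at 12 h, a difference of 0.43 ± 0.12 (adjusted p = 0.0185). Mrpl57 by probe 8732 had 9.84, 9.75, 9.65, 9.84 and 9.59 at 10 wk and 10.20, 9.99, 9.91, 10.13 and 10.21 at 12 h, a difference of -0.36 ± 0.10 (adjusted p = 0.0165). The times overlapped slightly for Mrps12 and not for Mrpl57. With class in the fit the adjusted p was 0.212 for Mrps12 and 0.101 for Mrpl57, and without the large spots arrays 0.0647 and 0.243. Leaving out rat 304, 335 or 336 ended the call for Mrps12, and leaving out rat 336 that for Mrpl57, with adjusted p up to 0.0556 and 0.0527.

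In corn oil rats no member was called by limma, against 3.02% of all probes, and 4 had an unadjusted p below 0.05, beside 1199 of all 6381 probes. Mrpl57 by probe 9407 came nearest, with 7.44, 7.67, 7.36, 7.63 and 7.58 at 10 wk and 8.43, 8.22, 7.64, 7.61 and 7.93 at 12 h, a difference of -0.43 ± 0.12 (adjusted p = 0.0539). Without the filter, under cyclic loess or with class in the fit it was called, with adjusted p of 0.0464, 0.0497 and 0.00952. The values 8.43 and 8.22 were those of rats 102 and 103, with the dimmest arrays. Mrpl18 followed with -0.26 ± 0.10 (adjusted p = 0.149). A direct test of whether the time difference varied with diet, an F test of the interaction, called no member and 0% of all probes, with 3 members and 260 of all probes at an unadjusted p below 0.05, where chance gives 5 of 99 and 319 of 6381. That calls differ in number between diets is thus not shown to be a difference between diets.

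Diets were compared with each other at each time. No member was called by limma in any of the 6 comparisons, where the share of all probes called was 0.0627% for fish oil against corn oil at 10 wk and 0% for the other 5. Members with an unadjusted p below 0.05 numbered 8 of 99 for fish oil against corn oil at 10 wk (685 of all 6381 probes), 2 for olive oil against corn oil at 10 wk (147 of all) and 5 for fish oil against olive oil at 10 wk (302 of all). For the same pairs at 12 h they numbered 6, 9 and 7, beside 528, 590 and 484 of all probes. The F tests across diets called no member and 0% of all probes at either time, with 6 members at an unadjusted p below 0.05 at each, beside 412 of all probes at 10 wk and 599 at 12 h. Confidence intervals were wider here: they lay within a 1.5-fold change for 86 to 89 of the 99 members, and within 0.32 of 0 on the log2 scale for 35 to 57.

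At 10 wk the smallest p for fish oil against corn oil was that of Atp5pb. Levels were 12.72, 12.96, 12.70 and 12.85 in fish oil rats and 13.19, 13.13, 13.08, 13.04 and 13.00 in corn oil rats, without overlap, and the difference was -0.28 ± 0.09 (adjusted p = 0.226). Atp5f1b followed with 13.67, 13.90, 13.54 and 13.57 in fish oil rats and 13.81, 14.02, 13.86, 14.09 and 14.14 in corn oil rats, overlapping, and a difference of -0.32 ± 0.12 (adjusted p = 0.333). The fish oil 10 wk values of Atp5pb also enter its time difference above, so the results share rats. Under median scaling the Atp5pb difference was -0.15 (adjusted p = 0.778).

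For olive oil against corn oil at 10 wk, Mrps27 by its more variable probe differed by 1.27 ± 0.45 (adjusted p = 0.999), with 9.08, 9.93, 10.11, 8.96 and 9.23 in olive oil rats and 9.30, 7.39, 7.93, 8.90 and 7.42 in corn oil rats, while its other probe had 7.58 to 7.94 in olive oil rats and 7.45 to 7.97 in corn oil rats. Ndufb2 differed by -0.37 ± 0.14 (adjusted p = 0.999). For fish oil against olive oil at 10 wk, Mrpl51 differed by -0.30 ± 0.13 (adjusted p = 0.924) and Ndufb10, an accessory subunit of complex I, by -0.25 ± 0.11 (adjusted p = 0.9999).

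At 12 h Ndufaf7, a methyltransferase of complex I assembly, had 8.86, 8.80, 8.59, 8.95 and 8.98 in fish oil rats and 9.33, 9.04, 9.02, 9.23 and 9.28 in corn oil rats. These did not overlap, and the difference was -0.35 ± 0.10 (adjusted p = 0.378). Mrps5 had 10.78, 10.78, 11.32, 10.96 and 10.68 in fish oil rats and 10.05, 10.51, 10.59, 10.68 and 10.49 in corn oil rats, the ranges meeting at 10.68, and a difference of 0.44 ± 0.17 (adjusted p = 0.539). For fish oil against olive oil, Mrpl3 differed by -0.34 ± 0.13 and Ndufa3, a complex I accessory subunit, by 0.23 ± 0.09 (adjusted p = 0.540 for each).

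The smallest p for olive oil against corn oil at 12 h came from probes with low or missing values in rats with large spots arrays. Mrpl21 differed by -1.48 ± 0.51 between olive oil and corn oil (adjusted p = 0.410). In olive oil rats its spot was missing in 2 rats and read 10.01, 6.46 (the floor) and 10.45 in the others, against 10.38 to 10.54 in corn oil rats. Without large spots arrays the difference was -0.23. Atp5mc1 differed by -0.71 ± 0.27 (adjusted p = 0.416), with 13.28, 10.91, 12.95, 13.17 and 13.35 in olive oil rats and 13.41 to 13.53 in corn oil rats, and by -0.29 without large spots arrays.

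The members were also followed under more than 1 normalization, since chain subunits lie at the bright end of the signal scale. The median rank of mean signal was the percentile 97.3 of all tested probes for the 34 chain and ATP synthase probes, 73 for the 47 ribosomal probes and 55.7 for the 15 import probes. Under scaling by each array's median, the median deviation of the 34 chain probes from their means over all rats ran from -0.26 through -0.19 to -0.11 in the 6 rats with a large spots array, and from -0.16 through 0.05 to 0.25 in the other 23. Under quantile normalization the values were -0.07 through 0.00 to 0.04 in those 6 rats and -0.08 through 0.02 to 0.11 in the other 23, and under cyclic loess -0.04 through 0.01 to 0.07 in the 6 and -0.09 through 0.02 to 0.11 in the 23. For the ribosomal probes under median scaling the values were -0.14 through -0.04 to 0.04 in those 6 rats and -0.14 through 0.04 to 0.16 in the others, and for all tested probes -0.07 through -0.06 to 0.01 in the 6 and -0.02 through 0.02 to 0.10 in the 23.

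**Figure D3:**
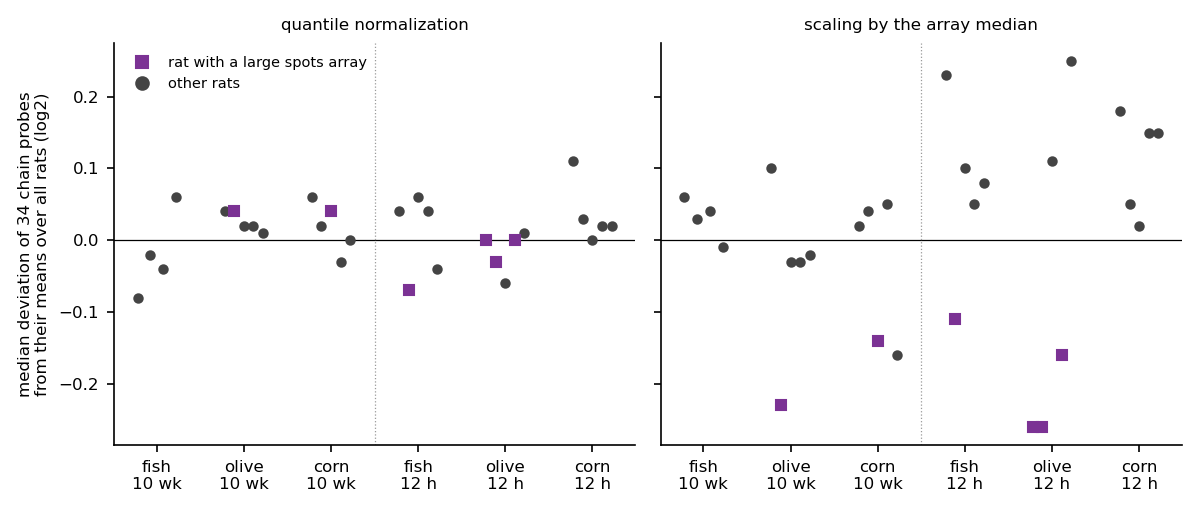
Median deviation of the 34 chain and ATP synthase probes from their means over all rats, in log2 units, per rat and group, under quantile normalization on the left and scaling by the array median on the right. Squares are the 6 rats with a large spots array and circles the other 23. Squares lie between -0.26 and -0.11 under median scaling and between -0.07 and 0.04 under quantile normalization.

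In corn oil rats, where 1 late rat and no early rat had a large spots array, the median chain difference between the times was -0.02 under quantile normalization, with 14 of 34 differences above 0. It was -0.16 under median scaling and -0.16 under scaling by the 75th percentile, with 5 of 34 above 0 in each, and -0.04 under cyclic loess, with 10 above 0. Over all tested probes the medians in corn oil rats were 0.008, -0.018, -0.016 and -0.009 under these settings in turn. No chain probe was called in corn oil rats under any of the 4. In olive oil rats, where 1 late and 3 early rats had large spots arrays, the median chain difference was 0.06, 0.06, 0.05 and 0.06 under quantile, median, 75th percentile and loess scaling, and in fish oil rats, where 1 early rat had one, it was 0.02, 0.01, -0.03 and 0.01. Averaged over diets, the median chain difference was 0.03, -0.03, -0.05 and 0.02 under quantile, median, 75th percentile and loess scaling, so that its sign turned with the scaling. The part of large spots arrays, or of the dim arrays of early corn oil rats 102 and 103, in these shifts was not tested.

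Calls averaged over diets were 3 higher and 6 lower under quantile normalization, 3 and 5 under median scaling, 2 and 9 under 75th percentile scaling and 2 and 6 under cyclic loess. The shares of all probes called under the other scalings are not given here. The 75th percentile setting added Atp5f1b, Ndufb10 and Ndufb11 to Atp5pb among lower chain members, while its median over all tested probes was -0.018. Of the 9 calls, 7, 8 and 8 remained under the median, 75th percentile and loess settings. In the authors' own normalized values 1 of the 9 remained, Mrpl52, where 19.3% of all probes were called. Of the member probes, 22 are called constant here in at least 1 diet. In these the authors' background-subtracted intensity was not spot mean minus background on most arrays of that diet. The authors' normalized values have a median over all tested probes of 0.17 for the times in corn oil rats.

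**Figure D4:**
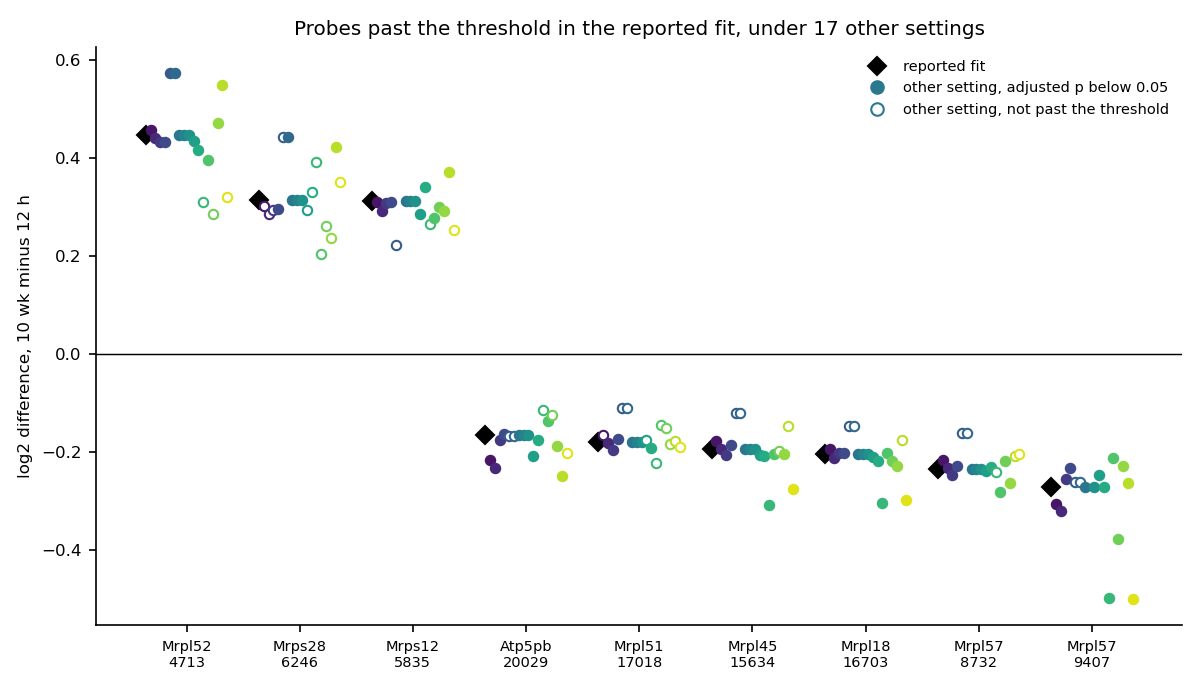
Log2 difference at 10 wk minus 12 h, averaged over diets, for the 9 called probes (columns) under the reported fit (diamonds) and 17 other settings (circles, in 1 order for every probe), or 16 for Mrpl57 by probe 9407, which the 50th percentile filter removes, and for Mrps12, which is left out with the constant probes. Filled symbols have an adjusted p below 0.05. The sign stays the same for all 9 probes under all settings shown, while calls are lost most often for Mrps28 (11 settings) and Mrpl51 (10 settings).

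Other nuclear genes of mitochondrial function, from lists chosen for this report and tested in the same fit, are given for the same times, beside the 36.9% called over all probes. Among 6 tested genes of the tricarboxylic acid cycle 3 were lower at 10 wk: Cs, citrate synthase, with a difference of -0.18, Mdh2, malate dehydrogenase, with -0.16 and Idh3g with -0.13 (adjusted p = 0.0196, 0.0281 and 0.0427). With class in the fit none of the 3 was called (adjusted p = 0.249, 0.202 and 0.283). Among 5 tested genes of mitochondrial biogenesis, Tfam, which binds mitochondrial DNA, was higher by 0.21 (adjusted p = 0.016, and 0.725 with class in the fit) and Ppargc1a, a coactivator of NRF1 and related factors, was lower, with 8.12 ± 0.42 at 10 wk and 8.59 ± 0.31 at 12 h (-0.48, adjusted p = 0.00487, and 0.0499 with class in the fit). Gabpa and Gabpb1, which encode GABP, differed by 0.09 and 0.11 without a call.

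Of 12 tested genes for mitochondrial translation, chaperones and membrane dynamics, Hspe1, Lonp1 and Immt were higher, by 0.30, 0.17 and 0.19, and the fusion protein Opa1 fell by 0.18. Immt, a core protein of cristae junctions, kept its call with class in the fit (adjusted p = 0.0331), and the others did not. Among 5 tested carriers and channels the uncoupling protein homologue Ucp2 was lower, with 10.45 ± 0.31 at 10 wk and 10.81 ± 0.30 at 12 h (-0.38, adjusted p = 0.0032, and 0.0326 with class in the fit). Of 7 tested assembly and electron transfer factors, Cox18 differed by 0.22 and Cox16 by -0.31, both called (with class in the fit adjusted p = 0.208 and 0.114), while Cox17 differed by -0.13 and was called only with class in the fit (adjusted p = 0.163 without and 0.0474 with class). All 3 are factors of complex IV assembly. Cycs, the electron carrier cytochrome c, differed by -0.06 without a call. The median differences of these lists ran from -0.11 to 0.11, beside 0.005 for the members.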

How the data were processed

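The authors deposited 1 file of spot intensity per array, from RNA of colonic mucosa labelled with biotin and stained with Alexa-647 streptavidin, per the labels' protocols. Spot mean, local background and noise are intensity values on a linear scale, per the file headers, and another column holds intensity normalized by the authors. Probes are called constant in a diet where the background-subtracted column was not spot mean minus background on most of its arrays. Whether their values in the normalized column are constant was not checked. The labels name no image software. Genes were named from the platform annotation, and 6252 of 8452 probes had 1 symbol.

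From spot mean and background median, intensities were corrected with normexp (offset 50), quantile normalized over the 43 arrays, floored at the 10th percentile (6.46) and log2 transformed, and repeat arrays were averaged per rat. A probe was tested where 4 or more rats exceeded the 30th percentile, which kept 6381 of 8452 (75.5%) and 99 of the 104 members. One model of the 6 groups was fitted with limma 3.58.1 in R 4.3.3, with 23 residual degrees of freedom, Benjamini-Hochberg adjustment over all tested probes and a threshold of 0.05. Precision rests on the number of arrays and rats. The fit was also run on simulated data with known changes and independent noise for each rat. Those data held no scan classes and no repeat arrays, so that the run does not bear on their effects.

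The text names, for the times averaged over diets, up to 2 rises and 2 falls per family among called members, or else the member with the smallest p; for other comparisons every call up to 6, or else the 2 smallest p; and genes whose probes disagree. Values of other members illustrate a family. Members and lists were chosen with earlier results of these data known. Alternatives covered scaling, background, filter, floor, repeat arrays, scan class, array weights and leaving out rats. Of these, class over all arrays, leaving out high-background arrays, leaving out large spots arrays, and median scaling with class were chosen after seeing the data. A protein table was not used here.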

Additional observations from a re-analysis of the deposited data

Results flagged for a closer look

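Of 149 sets of 1 group's values for the named members, 12 held a rat standing apart from its group by Dixon's criterion, where chance gives about 7.4 (1 in 20). Rat 202 (fish oil, 12 h) was low for Mrpl51 (9.37, others 9.88 to 9.98), Mrpl21 (9.10, others 10.39 to 10.64), Atp5mc1 (12.67, others 13.31 to 13.49) and Atp5f1b (13.46, others 14.04 to 14.17). One of its arrays was of the large spots class, as were those of rat 302 (olive oil, 12 h), low for Atp5mc1 (10.91, others 12.95 to 13.35), and of rat 333 (olive oil, 10 wk), high for Ndufb2 (8.17, others 7.69 to 7.75). The part of the class in these values was not tested.

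Rat 306 (olive oil, 12 h), with a small ring array, was high for Cox5a (13.84, others 13.52 to 13.61) and Atp5f1b (14.20, others 13.73 to 13.80). The remaining values were Cox5a in rat 203 (fish oil, 12 h; 13.38, others 13.63 to 13.71), Mrpl57 by probe 8732 in rat 232 (fish oil, 10 wk; 9.67, others 9.73 to 9.74), Atp5mc1 in rat 104 (corn oil, 12 h; 13.53, others 13.41 to 13.44) and Ndufa3 in rat 102 (corn oil, 12 h; 12.98, others 12.64 to 12.71).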

How the results depend on the processing

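No paired analysis was possible because rat numbers differ between the groups and repeat numbers mark arrays of 1 rat. Averaged over diets, the 3 higher and 6 lower member calls became 1 and 0 in the authors' normalized values (2 and 0 without constant probes, 881 higher and 350 lower over all probes with them), 5 and 6 with all arrays and rat as a random block, 0 and 3 with scan class (538 and 481 over all probes), 7 and 11 with array quality weights, 1 and 3 with class over all arrays, 6 and 2 without large spots arrays and 0 and 4 under median scaling with class. In corn oil rats 1 lower call appeared under loess, no filter, class, and median scaling with class. In fish oil rats the 1 lower call became 0 under median and 75th percentile scaling, in both versions of the authors' values and with class over all arrays, 2 under loess, with rat as a random block (beside 2 higher) and without high-background arrays, 3 without the filter and 4 with weights. In olive oil rats the 1 higher call became 0 in both versions of the authors' values and in all 3 settings with class, 3 with rat as a random block and 11 with weights. The 1 lower call became 0 in both versions of the authors' values, on first arrays, with class over all arrays, without large spots arrays and under median scaling with class, 2 without the filter or without high-background arrays and 7 with weights. These are counts of members, and the member called can change between settings. Atp5pb in fish oil rats and Mrpl57 by probe 8732 in olive oil rats each lost their calls in 7 of 17 other settings, class in the fit among them. Array weights also gave 13 calls over the 6 diet comparisons and 8 in the F tests, against 0 in each. The share of all probes called with weights is not given here, nor is it for several other settings. These counts therefore do not set the members apart from other probes. The members' median minus that of all probes was -0.115 and -0.119 in corn oil rats in the authors' values with and without constants, and 0.095 in olive oil rats without large spots arrays. The causes were not tested.

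Leaving out 1 rat gave 2 to 6 higher and 5 to 9 lower calls averaged over diets, 0 to 0 and 0 to 1 in corn oil, 0 to 1 and 0 to 2 in fish oil and 0 to 4 and 0 to 2 in olive oil rats, 0 to 1 in the diet comparisons and 0 to 0 in the F tests. The shares of all probes called without each rat are not given here, so that these ranges do not set the members apart from other probes. The members' median minus that of all probes ran from -0.009 to 0.019 averaged over diets, -0.048 to 0.001 in corn oil, -0.022 to 0.048 in fish oil and -0.014 to 0.036 in olive oil rats. Mrpl45 and Mrpl18 lost their calls without large spots arrays (adjusted p = 0.0612 and 0.069), and Mrpl45 with class over all arrays (0.0544). Signs turned for uncalled members: Cox5a to -0.075 and Uqcrc2 to -0.029 under median scaling with class; Sdhb to -0.046, -0.062 and -0.036 under median scaling, 75th percentile scaling and median scaling with class; Tomm34 to -0.000, -0.105, -0.004 and -0.074 with rat as a random block, class, class over all arrays and median scaling with class, and from -0.011 to 0.044 over left-out rats; and Mrpl21 to 0.258 for olive oil against corn oil at 12 h in the authors' values. Leaving out rats turned no sign among the 9 called probes, and 7 of them, all but Mrps28 and Mrpl51, kept their calls.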
